A study of Mus musculus with 6 samples.

Results

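Expression of zinc and other metal transport genes was measured in mouse otic vesicles at embryonic day 11.5, when the inner ear is still a sac of epithelium. The gene group was defined by gene symbol and comprised the zinc transporter families Slc30 and Slc39, the metallothioneins Mt1 to Mt4, the metal-sensing transcription factor gene Mtf1, and the iron, manganese and copper transport genes Slc11a1, Slc11a2, Slc40a1, Tfrc, Slc31a1, Slc31a2, Atp7a and Atp7b. This gave 71 probe sets of 37 genes among the 45101 rows of the array, and no probe set that also named another gene was taken. Of the 71, 3 were array control probe sets for Tfrc and entered no test. Among the other 68, 51 lay above the filter on dim probe sets, a mean intensity of 34.4, and 28 of the 37 genes could be tested.

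The Mest-KO group carried a conditional Tbx1 knockout made with T-Cre. This Cre is driven by the promoter of the T gene and acts in early mesoderm, so the deletion was aimed at tissue around the vesicle and not at its epithelium. The controls were T-Cre conditional Tbx1 heterozygotes, which thus carried T-Cre as well. There were 3 arrays per group, 1 for each pool, and a pool combined both vesicles of 3 embryos. The comparison asks whether the metal transport genes of the vesicle differ when Tbx1 is lost from the mesoderm. Differences are Mest-KO minus control in log2 units of quantile-normalized intensity, with the standard error (SE) of the limma fit and n = 3 arrays per group, and intensities are as deposited.

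Zinc enters the cytosol through importers of the Slc39 (ZIP) family and leaves it, to the outside or into organelles, through exporters of the Slc30 (ZnT) family. Metallothioneins are small cysteine-rich proteins that bind zinc and copper, and Mtf1 switches on their genes when free zinc rises. Iron enters cells through the transferrin receptor Tfrc and the divalent metal transporter Slc11a2 and leaves through ferroportin, encoded by Slc40a1. Copper enters through Slc31a1, and the ATPases Atp7a and Atp7b load it into the secretory pathway or pump it out.

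Tbx1 itself read 910, 704 and 713 in Mest-KO pools and 898, 690 and 766 in control pools, overlapping, at a log2 difference of -0.03 (SE 0.150). Tbx1 thus did not tell the labelled genotypes apart, and which cells gave its signal was not tested. The dissected tissue carried the marks of otic epithelium. All 9 epithelial markers on the array lay above the filter, with a summed intensity from 42390 to 46743 in Mest-KO and from 46944 to 48918 in control, and 0 of 9 passed limma's adjusted test. Of the 10 mesenchyme markers, 9 were higher and 1 lower in Mest-KO, with a median log2 difference of 0.43, and 0 passed. Their sums overlapped and varied widely within each group, from 1630 to 5848 in Mest-KO and from 1331 to 3861 in control. Of the 8 macrophage and leukocyte markers, 4 were below the filter and the other 4 were all lower in Mest-KO (median -0.48), and 0 passed, with sums from 301 to 459 in Mest-KO and from 276 to 717 in control. Of the 7 neuron markers, 3 were higher and 4 lower in Mest-KO (median -0.01), and 0 passed. Among the 3, Neurod1 read 1945, 1379 and 1490 in Mest-KO against 994, 1122 and 1096 in control, at 0.57 (SE 0.144). Of the 5 endothelium markers, 3 were below the filter and 2 were higher (median 0.23), and 0 passed. The array Mest-KO 3 had the highest median intensity, 91.0 against 62.1 to 71.0 on the others. It also stood apart on the first principal component, the main axis of difference between arrays (33.1% of the variance). Its value there was 36.4, against -10.3 to -1.77 on the others. The Mest-KO 1 pool had no Xist signal to speak of (16.1, against at least 2331 elsewhere) and the control 2 pool none of the Y-linked Eif2s3y (12.1, against at least 1373). Their part in the results below was not tested, other than by leaving arrays out.

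Among the 28 tested members, the smallest p was that of Slc39a8. This gene encodes ZIP8, an importer of zinc, manganese and other divalent metals at the cell surface. Its intensity in the Mest-KO pools was 1859, 1820 and 2097, against 3082, 2736 and 3247 in control pools. Every Mest-KO array lay below every control. The means were 1925 ± 150 (SD, n = 3) and 3022 ± 261 (SD, n = 3), and the log2 difference was -0.65 (SE 0.111, 95% confidence interval -0.920 to -0.384), or 1.57-fold lower. Without a variance trend, Slc39a8 ranked 23 by p among 12462 genes (unadjusted p = 0.000893) and did not pass, with a limma adjusted p of 0.484. With limma's trend option, which lets the expected spread follow the level, it passed at an adjusted p of 0.0238 and ranked 10. The exact two-sided permutation p was 0.1, the smallest that 3 against 3 arrays allow.

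**Figure D1:**
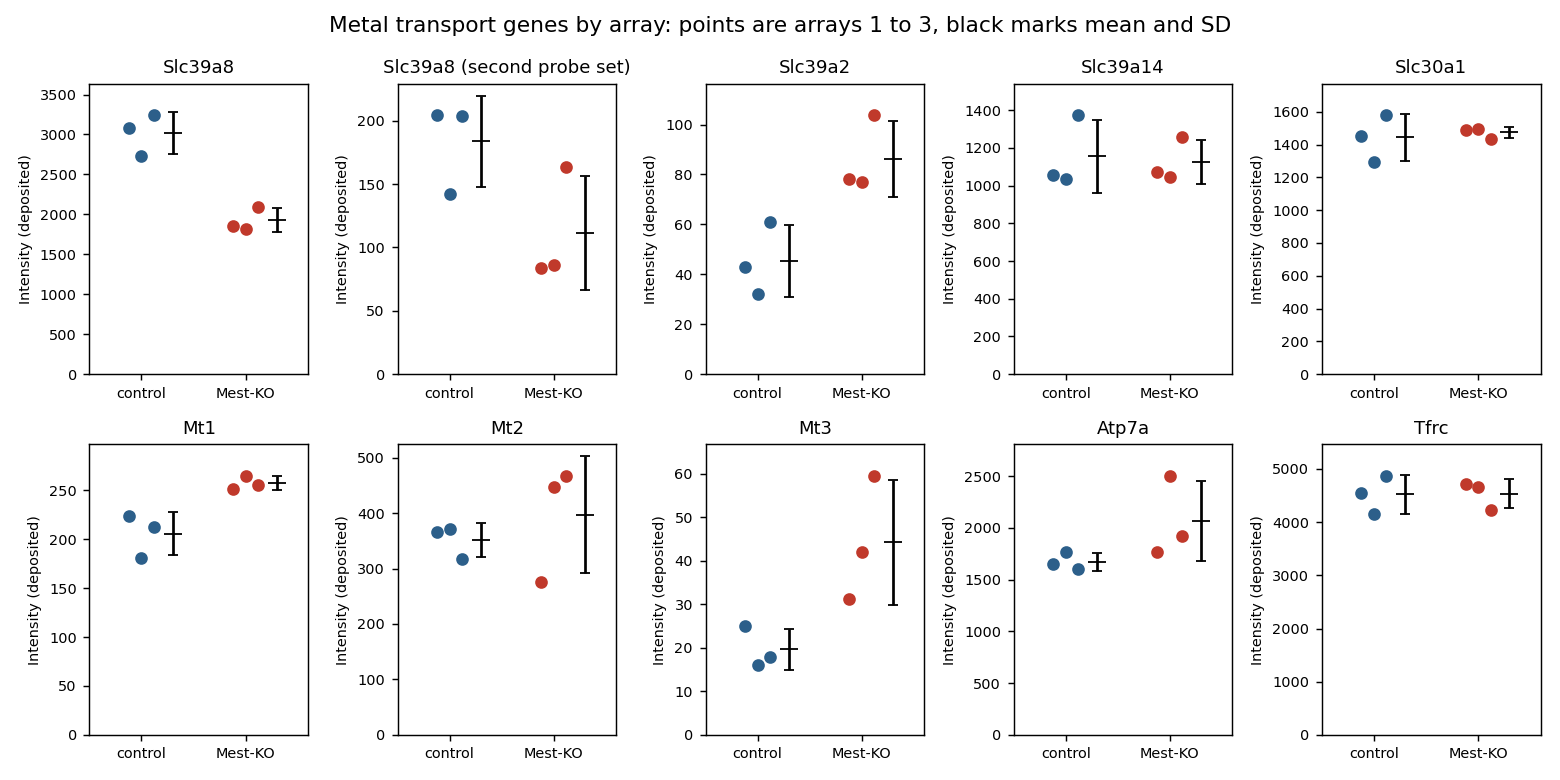
Deposited intensity (linear axis from 0) of 9 metal transport genes on each control array (blue) and Mest-KO array (red), with the second probe set of Slc39a8 in its own panel; black marks are group mean and SD, n = 3. The 3 Mest-KO arrays of Slc39a8 sit between 1820 and 2097, all below the controls at 2736 to 3247, while Tfrc and Slc30a1 overlap.

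A second, dimmer probe set of Slc39a8 gave 84.1, 86.1 and 163 in Mest-KO against 205, 142 and 204 in control. The deposited values overlapped at Mest-KO 3 and control 2, and after normalization all 3 Mest-KO arrays lay lower. The log2 difference was -0.84 (SE 0.267, from a fit of all probe sets with no filter). Across the 27022 probe sets above the filter, tested singly, 0 passed without the trend (0%). Both Slc39a8 probe sets missed with it (limma adjusted p of 0.0525 and 0.968). The call for the gene was lost with the trend when Mest-KO 1, Mest-KO 2, control 1 or control 3 was left out, with limma adjusted p of 0.0551, 0.108, 0.198 and 0.143. It was also lost between the 4 pools of both sexes (0.0910), with median centring (0.0551) and with the mean of both probe sets (0.288). The difference itself stayed between -0.80 and -0.60 in all 15 alternatives to the trend-free fit.

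**Figure D2:**
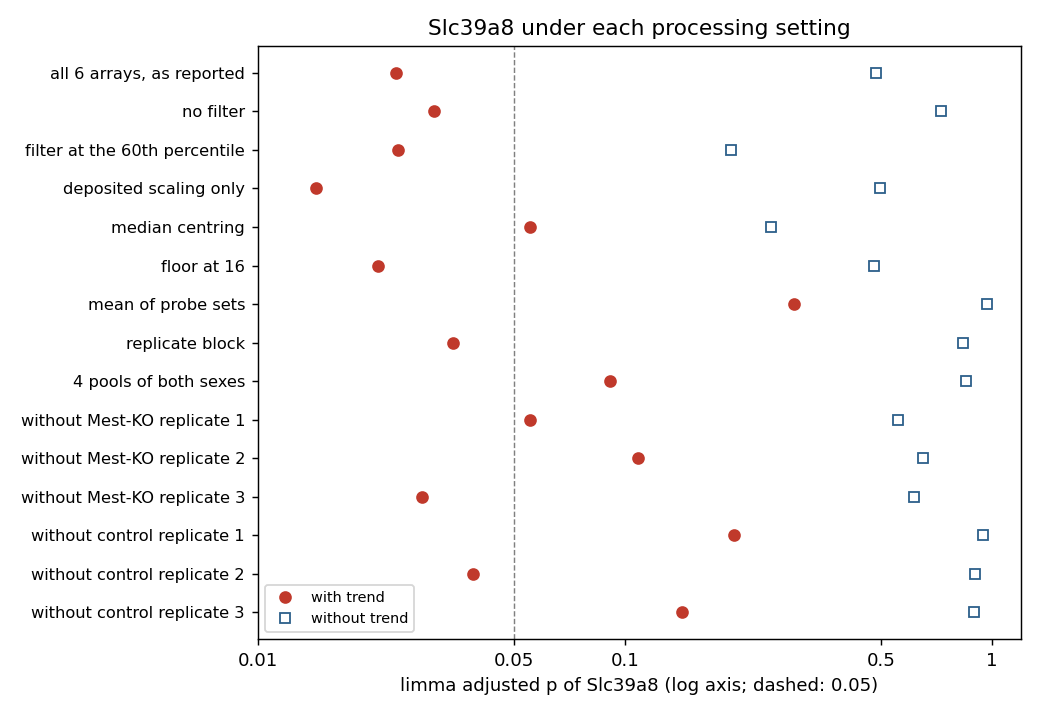
limma adjusted p of Slc39a8 (log axis) with the variance trend (filled circles) and without it (open squares) under each setting, the dashed line marking 0.05. With the trend the values run from 0.0144 with the deposited scaling to 0.288 with the mean of both probe sets; all squares lie above the line.

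Beside this difference the summed deposited intensities of the epithelial markers were also lower in Mest-KO, as given above, but by less. The mean normalized log2 values of these markers overlapped, at 11.63, 11.48 and 11.49 in Mest-KO against 11.62, 11.58 and 11.55 in control. Their median log2 difference was -0.03, with 3 of 9 higher and 6 lower. Krt8 and Krt18, keratin genes of simple epithelia, stood at -0.20 (SE 0.0960) and -0.21 (SE 0.103), and Oc90, which encodes the main otoconial matrix protein, at 0.00. The macrophage and leukocyte markers above the filter were lower on average, and most mesenchyme markers higher, as given above. The macrophage and leukocyte sums overlapped, at 301, 459 and 315 in Mest-KO against 717, 342 and 276 in control, with control 1 highest. The part of cell content in the Slc39a8 value was not tested.

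Among all members, 0 of 28 tested genes passed without the trend, against 0 of 12462 genes (0%), and 1 of 28, Slc39a8, passed with it, against 13 of 12462 (0.104%). At an unadjusted p under 0.05 there were 3 members, 10.7% of those tested against 5.14% of all genes. The groups did not overlap in the same number of members, again 10.7%, against 10.6% of all genes, so this share equals the background. Of the 28, 18 were higher and 10 lower in Mest-KO, or 6 and 22 with median centring, which moved the median of all genes to -0.14. The members' median was 0.03 against 0.00 for all genes, and -0.12 against -0.14 with that centring. The confidence interval stayed within a 1.5-fold change in either direction for 21 of 28 members (75.0%, against 73.2% of all genes) and within 2-fold for 26 (92.9%, against 90.6%). These intervals are not adjusted for the number of genes. Small differences were common: 18 members (64.3%) moved by less than 0.1, against 49.0% of all genes.

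**Figure D3:**
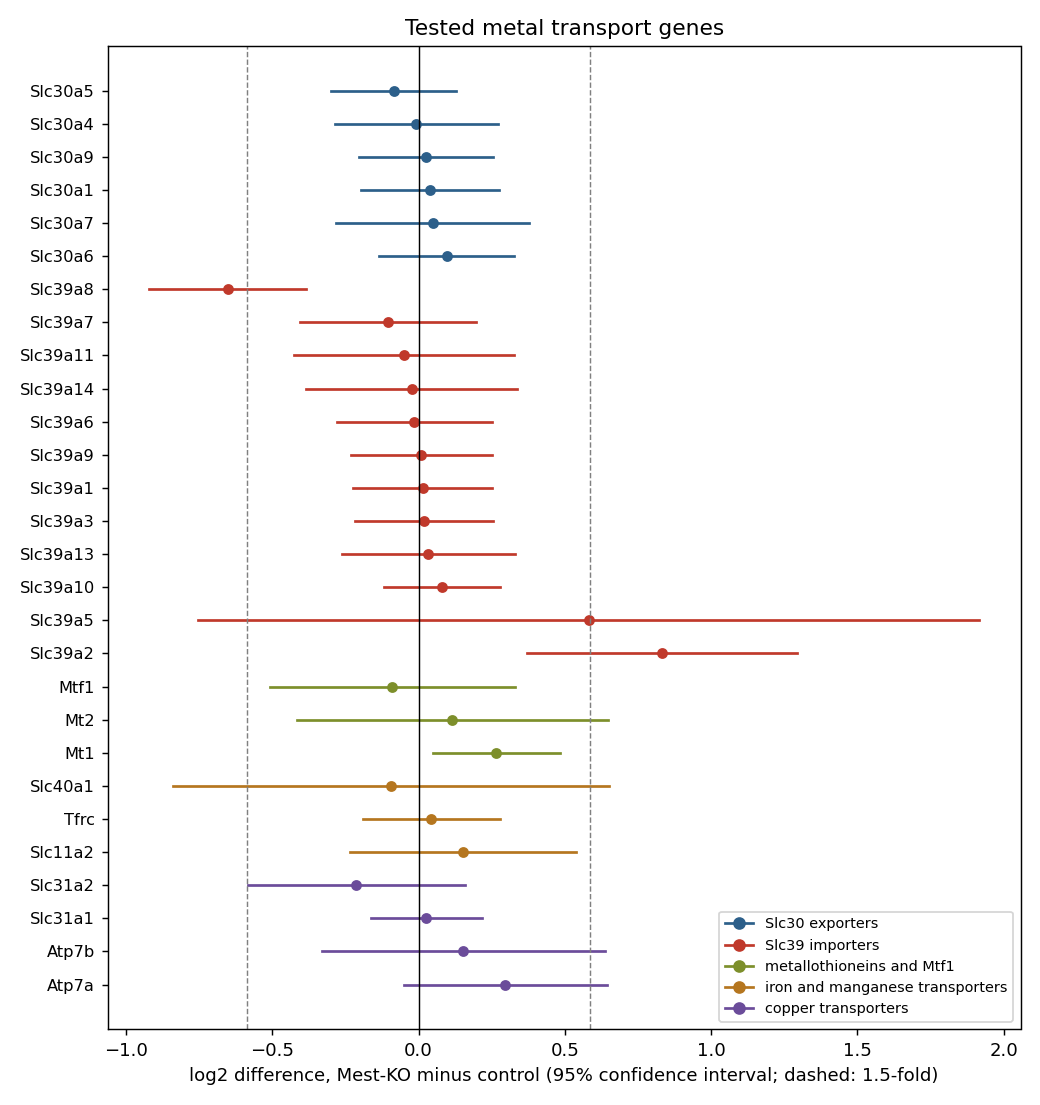
log2 difference (Mest-KO minus control) with its 95% confidence interval for the 28 tested metal transport genes, coloured by role, dashed lines marking a 1.5-fold change. The intervals of Slc39a8, Slc39a2 and Mt1 lie to one side of 0, and those of 21 genes stay between the dashed lines.

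**Figure D4:**
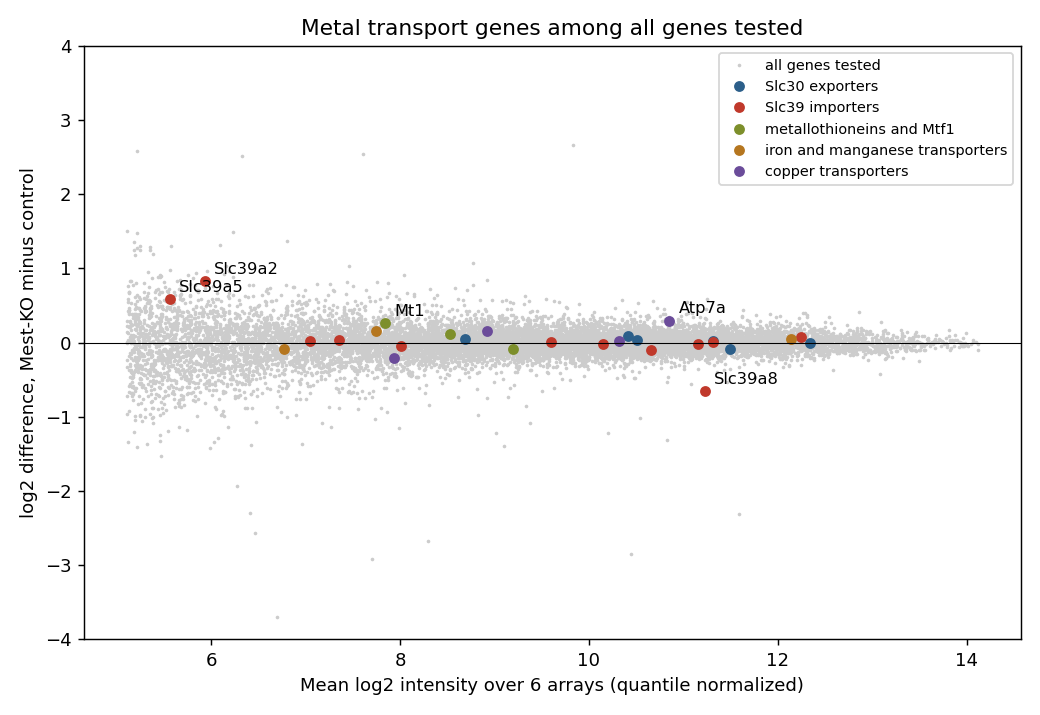
log2 difference against mean log2 intensity for all 12462 tested genes (grey) and the metal transport genes (coloured by role). Slc39a8, at -0.65, lies below the grey band at its level, whereas Slc39a2 and Slc39a5 lie at dim levels where the band is wide.

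The other Slc39 importers differed little, apart from the dim Slc39a2 and Slc39a5. Of the 14 genes of the family, 12 were tested, 7 of them higher and 5 lower, with a median difference of 0.01. Slc39a2, the ZIP2 gene, read 78.2, 76.9 and 104 in Mest-KO and 43.0, 32.1 and 60.9 in control. The groups did not overlap, at intensities not far above the filter. Its log2 difference of 0.83 (SE 0.191) had an unadjusted p of 0.00422 and did not pass (limma adjusted p = 0.702, or 0.772 with the trend), and leaving out single arrays moved it between 0.68 and 1.04. Slc39a5, the ZIP5 gene, read 46.4, 29.0 and 136 against 59.3, 37.1 and 20.3. Its difference of 0.58 (SE 0.552) rested on Mest-KO 3, falling to 0.07 without that array.

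Slc39a14, the ZIP14 gene and the closest relative of Slc39a8, read 1072, 1047 and 1259 in Mest-KO and 1057, 1033 and 1376 in control. The ranges overlapped throughout, at a log2 difference of -0.02 (SE 0.149, 95% confidence interval -0.384 to 0.336). Slc39a10, a surface importer, read 5032, 5153 and 4599 against 4508, 5141 and 4799, a difference of 0.08 (SE 0.0823). Slc39a6, the gene of its partner ZIP6, stood at -0.01 (SE 0.110). Slc39a7, which releases zinc from the endoplasmic reticulum and the Golgi, stood at -0.10 (SE 0.124) on a probe set whose design allows matches to more than 1 transcript. The remaining 5 tested importers, Slc39a1, Slc39a3, Slc39a9, Slc39a11 and Slc39a13, ran from -0.05 to 0.03. Slc39a4, the main intestinal zinc importer gene, and Slc39a12 were below the filter. Slc39a4 was between 6.41 and 27.2 on the 6 arrays, and its deposited values overlapped between the groups. After normalization every Mest-KO array lay below every control, at these dim levels. With no filter its difference was -0.88 (SE 0.338, unadjusted p = 0.0460) at a limma adjusted p of 0.975.

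No Slc30 exporter showed a difference beyond the spread between arrays. Of 10 genes, 6 were tested, with 4 higher and 2 lower, and all differences lay between -0.09 and 0.10. Slc30a1, which encodes the zinc exporter of the cell surface and is itself switched on by zinc through Mtf1, read 1489, 1498 and 1434 in Mest-KO and 1452, 1296 and 1582 in control. All 3 Mest-KO values fell inside the control range, at a difference of 0.04 (SE 0.0980, 95% confidence interval -0.197 to 0.276). Slc30a4, which loads zinc into vesicles, read 5505, 5445 and 4487 against 5078, 4931 and 5882. The difference was -0.01 (SE 0.115), with a sign that changed between arrays left out. Slc30a5 and Slc30a6, whose products act as a pair in the early secretory pathway, stood at -0.09 (SE 0.0886) and 0.10 (SE 0.0954). Slc30a6 read 1397, 1430.5 and 1401 against 1253, 1258 and 1464, so control 3 was the highest of all. Slc30a7 was at 0.05 and Slc30a9 at 0.02. Below the filter were Slc30a2, Slc30a3, Slc30a8, the zinc transporter gene of insulin granules, and Slc30a10, a manganese exporter gene.

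The metallothionein genes lay side by side on chromosome 8. Mt1 read 251, 265 and 256 in Mest-KO and 224, 181 and 212 in control. The groups did not overlap, at a log2 difference of 0.27 (SE 0.0895), but the gene did not pass (unadjusted p = 0.0234, limma adjusted p = 0.909, or 0.848 with the trend). This probe set can match transcripts of related genes by its design. The second Mt1 probe set was dim, from 3.23 to 58.4, and the mean of both gave -0.27. Mt2 read 276, 447 and 468 against 366, 372 and 317. Its groups overlapped, Mest-KO 1 being the lowest of all 6 arrays, and the difference was 0.11 (SE 0.220). Mt3, the metallothionein gene known from brain, was below the filter, with 31.2, 42.0 and 59.6 in Mest-KO against 25.0, 16.1 and 18.0 in control. Every Mest-KO value was the higher, and with no filter the difference was 0.98 (SE 0.150) at a limma adjusted p of 0.538. In that fit, without the trend, the unadjusted limma p of Mt3 was 0.00112, smaller than the 0.00255 of Slc39a8. Slc39a8 thus had the smallest p only among the members above the filter. Mt4, known from stratified epithelia, was between 1.65 and 22.2. Mtf1 read 527, 646 and 544 against 647, 464 and 710, and stood at -0.09 (SE 0.173), with all 5 of its probe sets above the filter below 0.

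The promoters of the metal-responsive genes Mt1, Mt2 and Slc30a1 and of Slc39a8, the member with the call under the trend, are shown because the core of the metal response element, the site that Mtf1 binds, can be read in them. Each is the 250 bases before a RefSeq start site (GRCm38.p6, plus strand), with TGCACNC or TGCGCNC on either strand in capitals.
Mt1, chr8:94178839-94179088: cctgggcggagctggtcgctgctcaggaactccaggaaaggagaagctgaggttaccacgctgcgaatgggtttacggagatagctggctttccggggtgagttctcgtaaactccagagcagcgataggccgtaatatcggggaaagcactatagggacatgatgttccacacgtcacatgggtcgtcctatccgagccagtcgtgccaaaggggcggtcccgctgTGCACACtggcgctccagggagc
Mt2, chr8:94172368-94172617: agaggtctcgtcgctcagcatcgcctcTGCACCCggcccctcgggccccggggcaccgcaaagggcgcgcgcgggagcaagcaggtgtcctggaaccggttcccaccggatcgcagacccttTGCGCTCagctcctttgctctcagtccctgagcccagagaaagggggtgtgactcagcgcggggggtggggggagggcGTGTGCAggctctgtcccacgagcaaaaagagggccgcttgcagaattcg
Slc30a1, chr1:191906531-191906780: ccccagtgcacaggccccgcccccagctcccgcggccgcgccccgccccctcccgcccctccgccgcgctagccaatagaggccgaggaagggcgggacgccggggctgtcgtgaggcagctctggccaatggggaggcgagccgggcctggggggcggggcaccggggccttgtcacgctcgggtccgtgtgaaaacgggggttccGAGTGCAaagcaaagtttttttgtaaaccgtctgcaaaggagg
Slc39a8, upstream start, chr3:135825029-135825278: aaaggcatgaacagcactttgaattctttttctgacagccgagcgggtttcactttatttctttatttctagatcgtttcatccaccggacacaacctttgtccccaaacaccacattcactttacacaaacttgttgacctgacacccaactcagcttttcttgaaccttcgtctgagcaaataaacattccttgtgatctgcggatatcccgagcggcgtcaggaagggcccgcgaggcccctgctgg
Slc39a8, downstream start, chr3:135825407-135825656: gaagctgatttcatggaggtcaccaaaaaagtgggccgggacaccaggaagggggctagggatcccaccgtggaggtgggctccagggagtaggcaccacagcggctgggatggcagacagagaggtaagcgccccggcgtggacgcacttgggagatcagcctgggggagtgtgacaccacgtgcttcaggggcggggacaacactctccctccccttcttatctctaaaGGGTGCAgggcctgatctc

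Mt2 held 3 matches, at 223, 128 and 50 bases before the start, Mt1 held 1 at 23 bases, and Slc30a1 held 1 at 43 bases. The upstream start of Slc39a8 held none, and the downstream start held 1 at 19 bases. RefSeq windows on chromosome 18 and those not of full length were left out for all genes. Among the rest, 31 of the 37 members had a window, in 37 windows. A match was present in 18 of these (48.6%) and in 21.4% of all 32851 promoter windows of the same length. The members' windows also had more G and C, a median of 62.0% against 52.4%, and the motif is itself rich in both. Bases after the RefSeq start sites used were not searched, so the counts cover these windows only. They are not the number of elements in a promoter and do not rank Mt1 against Mt2 or Slc30a1. A match is a run of letters and not a shown binding site.

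Among the iron genes no difference exceeded the spread at the probe set with the highest mean. Tfrc read 4726, 4656 and 4226 in Mest-KO and 4544, 4148 and 4877 in control. The ranges overlapped almost fully, at a difference of 0.04 (SE 0.0963, 95% confidence interval -0.189 to 0.277). A second Tfrc probe set gave 0.01, while the dimmest gave 101, 89.2 and 131 against 124, 127 and 155. The difference of the dimmest was -0.45 (SE 0.155, from the fit of all probe sets with no filter). It did not pass in the fit of the probe sets above the filter (limma adjusted p = 0.969). Immature red cells carry much Tfrc. The red cell markers on the array, 8 in number with 3 below the filter, summed to between 11721 and 12909 in Mest-KO and between 11852 and 13961 in control, and their part in the Tfrc values was not tested. Fewer cells of a type and less RNA per cell cannot be told apart in such pools.

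Slc11a2, the DMT1 gene, read 185, 257 and 257 against 218, 163 and 220, at 0.15 (SE 0.159). Leaving out single arrays moved it between 0.05, without control 2, and 0.29, without Mest-KO 1. Its 4 probe sets ran from -0.39 to 0.15. The one at -0.39 read 99.2, 109 and 87.1 in Mest-KO against 129, 104 and 114 in control. These deposited values overlapped, and after normalization every Mest-KO array lay lower. It did not pass (limma adjusted p = 0.969). Slc40a1, the ferroportin gene, read 116, 149 and 86.4 against 92.2, 106 and 130, at -0.09 (SE 0.308). Its interval was wide, from -0.838 to 0.652, and the sign turned to 0.24 without Mest-KO 3. Slc11a1, a transporter gene of phagocytes, was below the filter.

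Among the copper genes, Atp7a, mutated in Menkes disease, read 1764, 2506 and 1925 in Mest-KO and 1652, 1770 and 1601 in control. Mest-KO 2 stood highest, and the groups overlapped at Mest-KO 1 and control 2. The log2 difference was 0.30 (SE 0.144) and did not pass (limma adjusted p = 0.909). Leaving out single arrays moved it between 0.15 and 0.41, and a second probe set gave 0.02. Slc31a1, the copper importer CTR1 gene, read 1261, 1327 and 1266 against 1236, 1292 and 1269, at 0.03 (SE 0.0779, 95% confidence interval -0.161 to 0.215). Slc31a2 read 201, 212 and 287 against 276, 216 and 286, at -0.21 (SE 0.154). Without Mest-KO 1 it was -0.13 and without Mest-KO 3 -0.35, and its second probe set gave 0.10. Atp7b, mutated in Wilson disease, stood at 0.15 (SE 0.200).

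**Figure D5:**
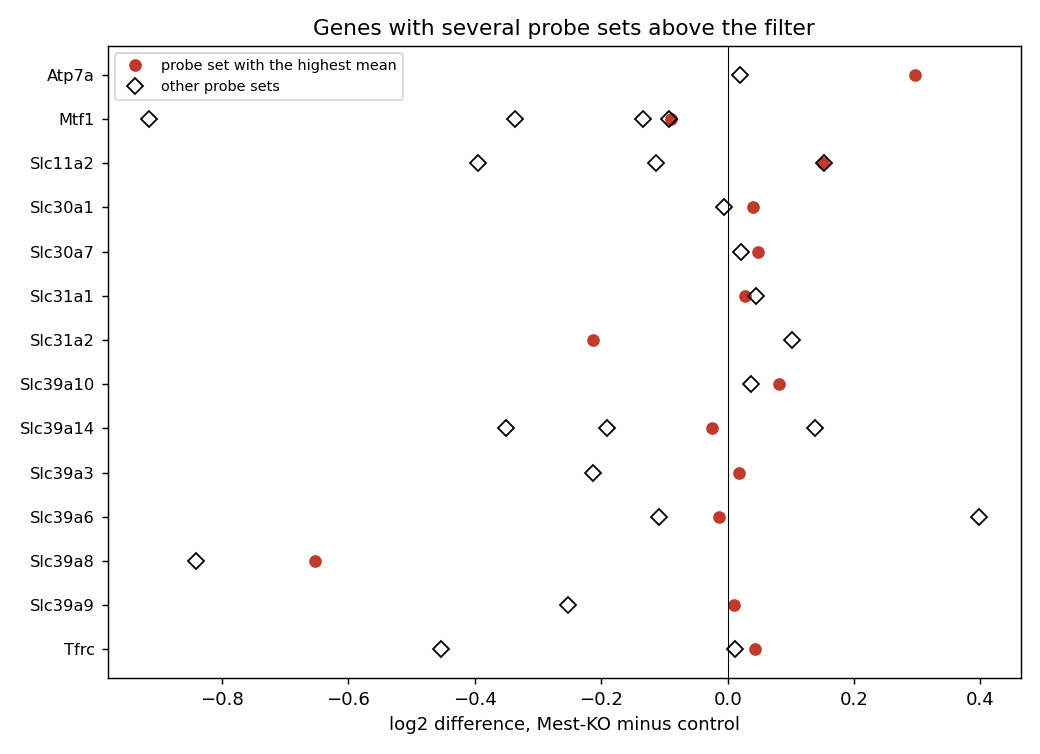
log2 difference (Mest-KO minus control) of every probe set above the filter for the 14 genes with more than 1 such probe set; red circles mark the probe set with the highest mean and open diamonds the others. Both sets of Slc39a8 lie left of 0, whereas those of Slc11a2, Slc39a14, Slc39a6 and Tfrc spread to both sides.

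The probe sets of a gene often differed in sign, in some genes only by small values around 0, as in Slc30a1 (-0.01 and 0.04). No share over all genes is given beside this count. Of the 14 members with more than 1 probe set above the filter, 6 had the same sign in all of them, namely Atp7a, Mtf1, Slc30a7, Slc31a1, Slc39a10 and Slc39a8. Slc39a8 had the largest differences of these 6 at the probe set with the highest mean. Among the 9 members below the filter, 5 had their highest deposited value on Mest-KO 3, as had 47.3% of the 5731 dim genes of the array, the array with the highest median.

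Further genes of metal handling were taken from 4 lists by function, and none of their genes passed with or without the trend. Of 21 tested genes of iron storage, regulation and haem, 10 were higher and 11 lower (median -0.01). Fbxl5, an iron-sensing ubiquitin ligase subunit gene, read 1868, 2115 and 1950 against 1731, 1668 and 1677, at 0.23 (SE 0.0855), with no overlap. Hmox1, which degrades haem, stood at -0.38 (SE 0.149). Of 15 copper handling genes, 7 were higher and 8 lower (median -0.08). Commd1, needed for copper export, read 3731, 2934 and 3416 against 3824, 4254 and 3988, at -0.24 (SE 0.117), again with no overlap. Cox19, of copper delivery to cytochrome oxidase, stood at -0.17 (SE 0.104).

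Of 17 genes of magnesium and manganese transport, 6 were higher and 11 lower (median -0.08). Atp2c2, a calcium and manganese pump gene of the secretory pathway, read 71.4, 69.7 and 59.8 against 129, 97.2 and 99.1. All Mest-KO values were the lower, at a log2 difference of -0.88 (SE 0.247, unadjusted p = 0.0107, limma adjusted p = 0.836). Cnnm4, a magnesium transport gene, stood at -0.26 (SE 0.108). Of 12 other zinc and metal response genes, 4 were higher and 8 lower (median -0.06). Gpr39, a zinc-sensing receptor gene, read 25.6, 54.2 and 30.6 against 51.4, 60.6 and 56.9, at -0.90 (SE 0.379), and S100a1 stood at -0.29 (SE 0.124). Unadjusted p under 0.05 was reached by 3 of the 65 tested genes of the 4 lists (4.62%), a share near the 5.14% of all genes.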

How the data were processed

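The deposited values were probe set intensities on a linear scale, made with Affymetrix Expression Console 1.1 per the submitters' processing notes. The values show that every array had been scaled to a trimmed mean of 500. The summarising algorithm was not given in the sources used here. Per the labels, the tissue was treated with dispase and 300 ng of RNA was labelled.

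Of 45101 rows, 64 controls were left out. Values below 1 were raised to 1, put on the log2 scale and quantile normalized across arrays. The probe set of highest mean stood for its gene if that mean exceeded the 40th percentile (an intensity of 34.4). Intensities of different probe sets are not comparable levels. All 12462 genes were fitted with limma 3.58.1 in R 4.3.3, without the variance trend in the main fit, and p-values were adjusted by Benjamini-Hochberg over all of them at 0.05. Plots used matplotlib 3.10.9.

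The members, lists, trend alternative and named genes (the 8 members of smallest p, 9 fixed members including Slc39a8, the highest-mean member of each family, and the 2 genes of smallest p in each further list) were chosen with earlier results of these data known. Other genes were added for their role. The labels call arrays biological replicates. Simulated data held 12462 genes, with 200 changed by 2-fold or more, and means over 5 simulations were taken. Of the 2-fold changes, 70.4% were called without and 73.0% with the trend, with 8.80 and 6.80 false calls. These shares depend on the number and size of the planted changes, so they do not give the power of this comparison. Alternatives are in the closing section. Median centring with the trend was added after seeing the data.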

Additional observations from a re-analysis of the deposited data

How the results depend on the processing

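The 9 members below the filter were not tested. The count of member probe sets, 0, held in all 14 alternatives. The count of member genes, 0, was 1 with the trend and 0 in the other 14. The count of all genes was 7 when the filter lay at the 60th percentile, 25 with median centring, 13 with the trend and 0 otherwise. With the trend, it was 39 with median centring, 6 with probe sets averaged, 8 with the replicate block, 7 between the 4 pools of both sexes, and 6 to 17 with an array left out. The member count with the trend, 1, was 0 with median centring, the mean of probe sets and the 4 pools, and 0 to 1 with an array left out. Same-numbered arrays did not deviate together (correlations of -0.109, -0.00832 and -0.00734). With 3 arrays per group, this cannot show whether the numbers pair the pools. With the replicate block Slc39a8 kept its call under the trend (limma adjusted p = 0.0339).

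Slc39a8 stood at -0.652 with the trend, and under the trend at -0.799 with median centring, -0.747 with probe sets averaged, -0.695 between the 4 pools and -0.728 to -0.602 with an array left out. With median centring, over all probe sets, the members that were higher went from 18 to 6 while the median of all genes went to -0.14. Among the members followed through every setting, Slc30a6 (-0.0570), Slc39a10 (-0.116), Slc30a1 (-0.115), Mt2 (-0.00919), Tfrc (-0.144) and Slc31a1 (-0.129) changed sign. With the mean of probe sets the signs of Mt1 (-0.267), Tfrc (-0.132), Slc11a2 (-0.0509) and Slc40a1 (0.178) changed, with the deposited scaling that of Slc40a1 (0.0751), and between the 4 pools those of Slc30a1 (-0.0352) and Tfrc (-0.0521). With an array left out, Slc30a1 ran from -0.0341 to 0.110, Mt2 from -0.0210 to 0.364, Tfrc from -0.0259 to 0.0913, Slc40a1 from -0.342 to 0.240, Slc30a4 from -0.0707 to 0.0720 and Mtf1 from -0.257 to 0.0385. The cause of these differences was not tested.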

Other observations

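The 3 control probe sets for Tfrc, which the array maker placed along the transcript, entered no comparison. The set at the 3' end had an intensity from 176 to 210 in Mest-KO and from 155 to 233 in control. The middle set ran from 43.6 to 152 and from 71.0 to 97.5, and the set at the 5' end from 22.8 to 61.7 and from 10.7 to 48.5. The groups overlapped in each of the 3 sets.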
